A study of Caenorhabditis elegans with 6 samples.

Results

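The transcripts described here belong to 31 genes that build the meiotic chromosome axis, pair and synapse homologous chromosomes, and carry out meiotic recombination in Caenorhabditis elegans. They were chosen by gene name from the 45132 genes with a value in every library, and each name matched 1 gene. RNA came from whole worms of the wild-type strain N2. Control animals received bacteria with the empty L4440 vector during larval life, and the other group received bacteria that silence vit-5, a yolk protein gene, over the same period. As young adults both groups were moved to OP50 bacteria at 20 °C, and both were collected as 5-day-old worms. Each group had 3 libraries, and each library gave 1 value per gene in FPKM, the number of fragments normalized to transcript length and sequencing depth. Values below are given in the order of replicates 1, 2 and 3. The labels do not say whether replicates were separate cultures, so p-values measure only the spread between libraries, some or all of which may be technical.

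In the first division of meiosis, each chromosome must find its homologue, align along its length and exchange DNA with it. In C. elegans a proteinaceous axis of cohesin and HORMA-domain proteins organizes each chromosome, and zinc-finger proteins bound at pairing centres near chromosome ends bring homologues together. The synaptonemal complex then zips the aligned axes. Programmed DNA breaks are made by SPO-11, processed, and repaired from the homologue, and a single crossover is usually designated per chromosome pair. These events take place in germ cells, so in RNA of whole worms the number of germ cells and the RNA per germ cell cannot be told apart.

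The RNAi target was low in the libraries labelled vit-5 RNAi. The vit-5 transcript stood at 2335, 1396 and 1573 FPKM in control libraries and at 116, 51.6 and 22.8 FPKM after vit-5 RNAi. The groups were far apart, with a limma adjusted p of 0.0552 and a 2-sided p of 0.1 by exact permutation, which is the smallest that 3 against 3 allows. Reads of close vitellogenin paralogues could have been counted with it. Sequencing depth is not recorded with the values, and the spacing of low FPKM put it at roughly 16900000 to 20800000 fragments. The fewest fragments behind any value of a meiotic gene were then about 92, for chk-2, and the lowest FPKM, that of msh-5, rested on about 138, without any counting interval, since whole counts were not recovered.

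All 31 genes were detected above 1 FPKM in all 6 libraries, with control means from 2.11 FPKM (msh-5) to 67.4 FPKM (htp-1). Ranked by control mean among the 12908 tested genes, those reaching 1 FPKM in 3 or more libraries, they lay between the 17.1th and the 84.1th percentile, with a median at the 54.5th. In WBcel235, 12 lie on chromosome IV, 9 on V, 5 on I, 4 on III and 1 on II. None of the 31 lies on the X chromosome, which holds 14.7% of the tested genes.

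The libraries differed in a shared way within both groups. Control replicate 1 held the highest control value of all 31 genes, and vit-5 RNAi replicate 1 the highest value of its group for 29 of them. Across all tested genes those shares were 56.6% and 43.5%. The lowest value of its group was in vit-5 RNAi replicate 3 for 29 of the 31 (42.7% of tested genes) and in control replicate 2 for 24 (58.4% of tested genes). The geometric mean of the 31 genes was 20.2, 14.02 and 15.3 FPKM in control libraries and 28.4, 22.6 and 17.1 FPKM after vit-5 RNAi, so vit-5 RNAi replicate 3 lay below control replicate 1.

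Summed markers of germ cells and of other cells differed between libraries too. A list of 20 germline genes summed to 2202, 1445 and 1536 FPKM in the control libraries and 2264, 1978 and 1215 FPKM in the vit-5 RNAi libraries, and its most abundant members were the RNA-binding protein genes gld-1 (608, 371 and 386 FPKM across controls against 527, 504 and 265 FPKM with vit-5 RNAi) and mex-3 (319.7, 231 and 232 FPKM across controls against 328, 289 and 183 FPKM with vit-5 RNAi). A list of 15 oocyte genes summed to 10556, 9063 and 9207 FPKM in the control libraries and 9706, 9770.3 and 6120.2 FPKM in the vit-5 RNAi libraries, and was led by the eggshell genes perm-2 (3150.2 ± 69.8 and 2468 ± 544 FPKM) and perm-4 (2433 ± 186 and 2089 ± 538 FPKM, means ± SD of controls and vit-5 RNAi, n = 3 each). Both sums were lowest of all 6 libraries in vit-5 RNAi replicate 3, where 9 of the 31 meiotic genes had their lowest value of all 6, against 16 in control replicate 2 and 6 in control replicate 3. The 24 larval cuticle and molting genes ran the other way, at 641, 1211 and 1362 FPKM in the control libraries and 847, 883 and 1888 FPKM in the vit-5 RNAi libraries. Within that list dpy-13 followed the sum (6.52, 234 and 275 FPKM across controls against 5.92, 55.6 and 349.6 FPKM with vit-5 RNAi), and dpy-17 (320.3, 99.6 and 102 FPKM across controls against 426, 339.6 and 89.1 FPKM with vit-5 RNAi) did not. A list of 12 genes taken as somatic gonad markers summed to 155, 143 and 171 FPKM in the control libraries and 183, 192 and 247 FPKM in the vit-5 RNAi libraries. The sum did not overlap between groups, and 30.8% of tested genes were likewise higher after vit-5 RNAi without overlap. Their most abundant members were tnc-2 (43.6, 58.3 and 69.4 FPKM across controls against 42.8, 76.7 and 121.9 FPKM with vit-5 RNAi) and inx-8 (58.7, 43.7 and 56.8 FPKM across controls against 72.0, 58.2 and 58.2 FPKM with vit-5 RNAi). The rise of the sum to vit-5 RNAi replicate 3 followed tnc-2 and not inx-8. Whether tnc-2 stands for the gonad in whole worms was not tested. Early embryo markers (17 genes, 2 listed at 0 in all libraries) summed to 168, 115 and 114 FPKM in the control libraries and 206, 166 and 144 FPKM in the vit-5 RNAi libraries, mostly from pal-1 (87.4 ± 25.9 and 115 ± 29.1 FPKM), followed by elt-7 (10.1 ± 2.36 and 16.2 ± 3.43 FPKM). In both groups pal-1 was highest in replicate 1, as the germline sum was, and elt-7 was highest in replicate 3. The sum is therefore not read as an amount of embryos. Sperm markers were nearly absent: 35 genes together gave 8.44 to 36.2 FPKM, 3 of them were listed at 0 in all libraries, and only ssp-10 (6.08 ± 0.659 and 6.10 ± 0.727 FPKM) and msp-31 (2.93 ± 1.64 and 1.84 ± 1.62 FPKM) passed the expression filter. The part these cells play in the differences below was not tested.

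**Figure D1:**
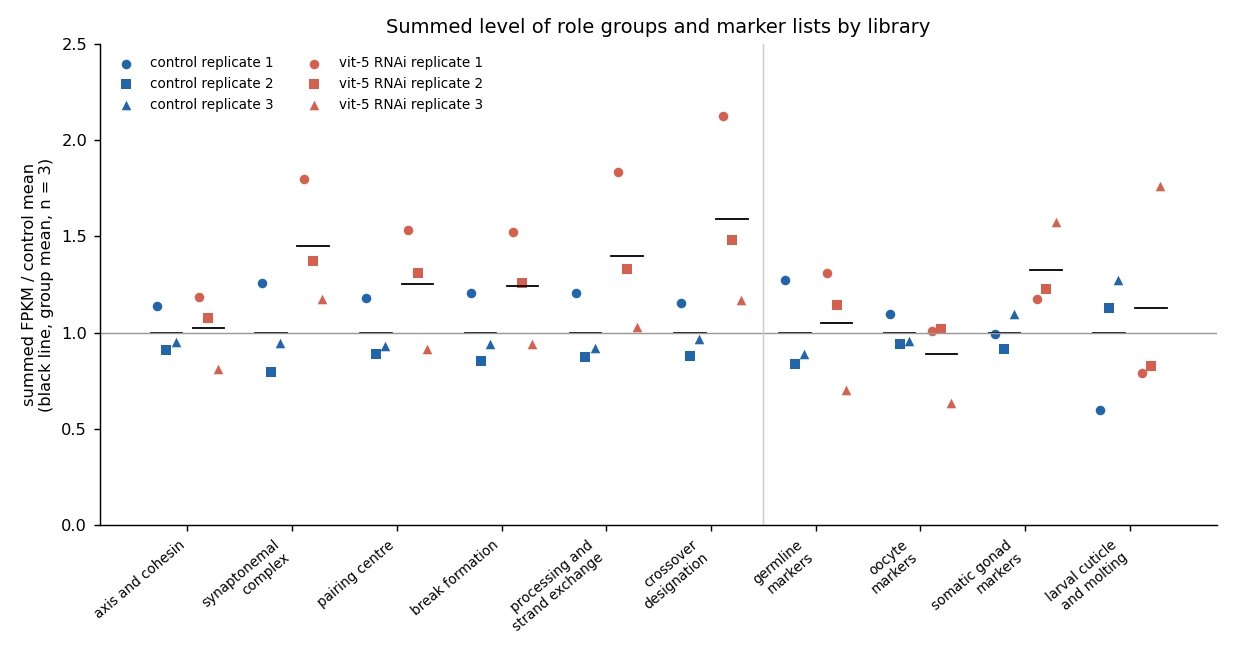
Summed FPKM of each group of meiotic genes by role (left of the grey line) and of 4 marker lists (right), divided by the control mean of that sum. Each point is 1 library, with circles, squares and triangles for replicates 1, 2 and 3, and black lines are group means. The sum of crossover genes does not overlap between groups, by a small margin (40.4 FPKM in vit-5 RNAi replicate 3, 39.9 FPKM in control replicate 1). As single genes, 30.8% of tested genes were higher after vit-5 RNAi without overlap. The vit-5 RNAi replicate 3 (red triangles) is the lowest of its group for every meiotic sum. It is the highest for larval and somatic gonad markers, the latter following tnc-2, the most abundant gene of that list.

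In the comparison of vit-5 RNAi with control, no meiotic gene passed an adjusted p of 0.05 by limma, and neither did any of the 12908 genes tested (0%), of which 3378 were higher and 117 lower at an unadjusted p under 0.05. Limma fits 1 linear model per gene to log2(FPKM + 1) and pools the spread across genes. The limma adjusted p of the 31 genes ran from 0.122 to 0.948. At an unadjusted p under 0.05, 11 of the 31 (35.5%) were higher after vit-5 RNAi and 0 lower, against 26.2% and 0.906% of all tested genes. The log2 fold change was above 0 for 27 of the 31 (87.1%), against 79.5% of all tested genes. Its median was 0.44 for the meiotic genes and 0.34 for all tested genes, a difference of 0.10. That difference ran from -0.092 without the first vit-5 RNAi library to 0.26 without the third, so its sign rested on single libraries, and it was -0.014 without control replicate 3. In the fit of all libraries the shares of the 31 genes lay near the background. The count of 11 was 3 (9.68%) when control replicate 2, control replicate 3 or the first vit-5 RNAi library was left out, against 11.2%, 15% and 17.5% of tested genes in those fits. It was 6 (19.4%, against 19.9%) when the second vit-5 RNAi library was left out, and 18 (58.1%, against 27.5%) when the third was. Without control replicate 1 it was 14 (45.2%, against 29.9%). All these fits held group as the only term. With the replicate number added as a block, 12 of the 31 passed the adjusted threshold, all higher, and so did 28.5% of tested genes. The labels do not say whether the numbers pair the libraries.

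Median-of-ratios scaling divides each library by its typical ratio to the others and took out most of the median shift, leaving a median of 0.03 over all tested genes. The meiotic genes then lay on both sides of 0. The log2 fold change was above 0 for 17 (54.8%, against 52.6% of tested genes) and below 0 for 14, with a median of 0.11. At an unadjusted p under 0.05, zim-2 and spo-11 were higher and htp-1 and htp-2 lower, where 9.23% of tested genes were higher and 12.1% lower. The genes are described by role from here on.

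**Figure D2:**
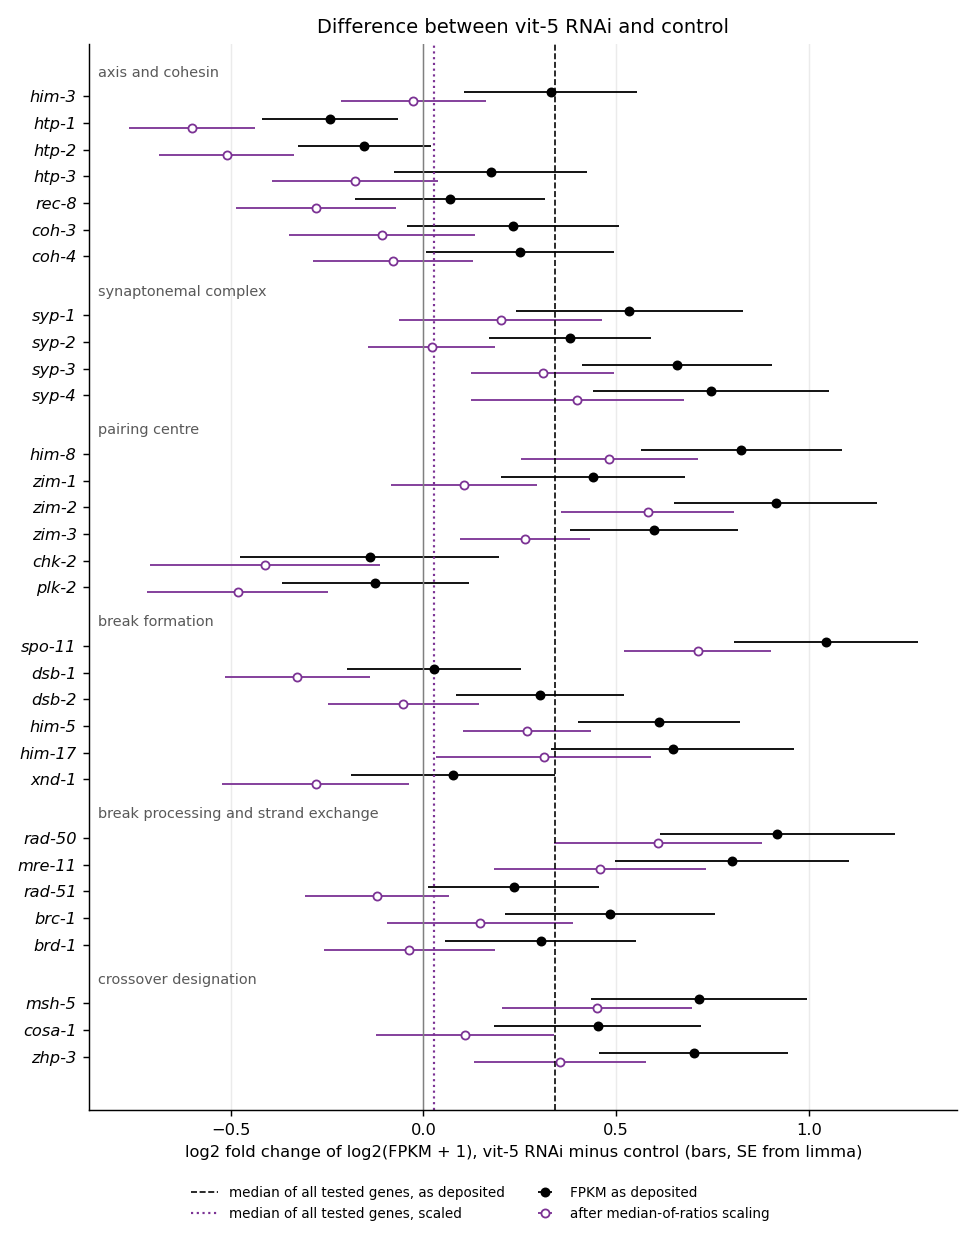
Log2 fold change of log2(FPKM + 1), vit-5 RNAi minus control, for each gene by role. Filled black points use FPKM as deposited, open purple points use median-of-ratios scaling, bars are standard errors from limma, and the dashed and dotted lines mark the median of all tested genes on each scale (0.34 and 0.03). Pairing-centre zinc-finger genes, spo-11, rad-50 and mre-11 lie to the right of the line on both scales. So do syp-1, syp-3, syp-4, him-5, him-17, brc-1, msh-5, cosa-1 and zhp-3. To the left of 0 on both lie htp-1, htp-2, chk-2 and plk-2.

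The axis and cohesin group held the gene with the highest control mean, htp-1, and had the lowest median log2 fold change of the 6 role groups. The HORMA-domain gene htp-1 (IV, 5390189 to 5391557), whose product coordinates pairing with synapsis, stood at 73.1, 62.6 and 66.4 FPKM in the control libraries and 57.9, 66.1 and 47.5 FPKM in the vit-5 RNAi libraries. Its near-identical paralogue htp-2 (IV, 6419522 to 6420898) stood at 54.9, 54.8 and 50.6 FPKM in the control libraries and 51.7, 53.3 and 39.9 FPKM in the vit-5 RNAi libraries. Both sets of values overlapped between groups, with log2 fold changes of -0.24 (SE 0.18) and -0.15 (SE 0.17) and limma adjusted p-values of 0.385 and 0.581. After median-of-ratios scaling the log2 fold changes were -0.60 and -0.51, the groups did not overlap for either gene, and the adjusted p-values were 0.186 and 0.19. Reads of such close copies could have been split between them, so their sum is given too. It was 128, 117 and 117 FPKM in the control libraries and 109.6, 119 and 87.4 FPKM in the vit-5 RNAi libraries.

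The other HORMA-domain genes had fold changes above 0. The axis component him-3 (IV, 6977508 to 6978765) stood at 50.4, 34.9 and 38.2 FPKM in the control libraries and 65.4, 49.8 and 41.6 FPKM in the vit-5 RNAi libraries, highest in vit-5 RNAi replicate 1 and with overlapping groups. The gene htp-3 (I, 4827072 to 4829796), whose product recruits the other HORMA-domain proteins to the axis, stood at 35.1, 23.6 and 25.1 FPKM in the control libraries and 40.3, 31.8 and 23.6 FPKM in the vit-5 RNAi libraries. Its highest value was again in the first vit-5 RNAi library, and the value of the third was close to the lowest control. Their log2 fold changes were 0.33 (SE 0.22) and 0.17 (SE 0.25), or -0.026 and -0.18 after median-of-ratios scaling, and htp-3 was at -0.0062 without vit-5 RNAi replicate 1.

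Ratios of FPKM within a library do not depend on how libraries are scaled, and are given here as descriptions with no test. The pairs were chosen after the values were seen, and of all 465 pairs of the 31 genes 58.9% had ratios that did not overlap between groups, so a ratio without overlap is common in this set. The ratio of htp-1 to him-3 was 1.45, 1.79 and 1.74 in the control libraries and 0.886, 1.33 and 1.14 in the vit-5 RNAi libraries, and the ratio of htp-1 to htp-3 was 2.08, 2.66 and 2.65 in the control libraries and 1.44, 2.08 and 2.01 in the vit-5 RNAi libraries. Both were lower in every vit-5 RNAi library than in any control library, though only just for htp-3 (2.08 in both neighbouring libraries). The ratio of him-3 to htp-3 was 1.43, 1.48 and 1.52 in the control libraries and 1.62, 1.57 and 1.76 in the vit-5 RNAi libraries, higher in all vit-5 RNAi libraries. The ratio of htp-1 to htp-2 overlapped, at 1.33, 1.14 and 1.31 in the control libraries and 1.12, 1.24 and 1.19 in the vit-5 RNAi libraries.

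Meiotic cohesin is distinguished by its kleisin subunit. The kleisin gene rec-8 (IV, 13349122 to 13353193), which holds sister chromatids together until they part in the meiotic divisions, stood at 24.9, 17.5 and 22.4 FPKM in the control libraries and 28.8, 23.4 and 16.9 FPKM in the vit-5 RNAi libraries. The paralogous kleisins coh-3 (V, 14457422 to 14460141) and coh-4 (V, 4169912 to 4175640), which act redundantly in axis assembly, summed to 28.5, 19.99 and 20.6 FPKM in the control libraries and 34.4, 28.2 and 20.9 FPKM in the vit-5 RNAi libraries. Each of these had overlapping groups, with vit-5 RNAi replicate 3 near the lowest controls. Log2 fold changes were 0.069, 0.23 and 0.25 as deposited and -0.28, -0.11 and -0.079 after median-of-ratios scaling. That of rec-8 was -0.069 without control replicate 2 and -0.10 without the first vit-5 RNAi library. The exons of coh-4 share 327 bases with Y45G5AM.7, annotated on the same strand, so some of its reads could belong to that gene.

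Of the 7 axis and cohesin genes, 5 had a log2 fold change above 0 and 2 below, 0 had an unadjusted p under 0.05, and the median was 0.17. After median-of-ratios scaling all 7 were below 0, with a median of -0.18. Their summed level was 234.6 ± 28.5 and 240.5 ± 45.3 FPKM (mean ± SD of controls and vit-5 RNAi, n = 3 each), a difference smaller than the spread between replicates.

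The 4 genes of the synaptonemal complex encode proteins of its central region, and all 4 had log2 fold changes above 0 on both scales. The smallest was that of syp-2 (V, 5536487 to 5537717), the most abundant of them at 73.6, 47.6 and 56.6 FPKM in the control libraries and 90.3, 75.1 and 65.1 FPKM in the vit-5 RNAi libraries, with overlapping groups. The log2 fold change of syp-2 was 0.38 (SE 0.21), or 0.021 after median-of-ratios scaling. For syp-3 (I, 8663048 to 8664120) the values were 24.8, 14.3 and 18.6 FPKM in the control libraries and 36.6, 25.4 and 29.6 FPKM in the vit-5 RNAi libraries. All vit-5 RNAi values lay above all controls, with vit-5 RNAi replicate 2 just above control replicate 1. The log2 fold change was 0.66 (SE 0.25), with a limma adjusted p of 0.149. For syp-4 (I, 6847511 to 6849923) the values were 23.05, 14.2 and 14.998 FPKM in the control libraries and 41.5, 30.3 and 19.7 FPKM in the vit-5 RNAi libraries, with vit-5 RNAi replicate 3 inside the control range, a log2 fold change of 0.75 (SE 0.30) and an adjusted p of 0.167. For syp-1 (V, 16404274 to 16407701) the values were 11.4, 8.19 and 9.49 FPKM in the control libraries and 21.2, 14.1 and 9.81 FPKM in the vit-5 RNAi libraries, also overlapping, with a log2 fold change of 0.53 (SE 0.30). The exons of syp-1 share 517 bases with F13A7.14 on the same strand, a gene at 35.9 and 40.1 FPKM in control and vit-5 RNAi means. Within libraries the ratio of syp-2 to him-3 overlapped, at 1.46, 1.36 and 1.48 in the control libraries and 1.38, 1.51 and 1.56 in the vit-5 RNAi libraries. The ratio of syp-3 to syp-2 was 0.337, 0.301 and 0.329 in the control libraries and 0.405, 0.339 and 0.454 in the vit-5 RNAi libraries, not overlapping. Summed, the complex stood at 106 ± 24.8 and 153 ± 33.5 FPKM (SD, n = 3 each), with vit-5 RNAi replicate 3 below control replicate 1.

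Each pairing-centre protein recognizes its own chromosomes. HIM-8 binds the X chromosome, ZIM-1 chromosomes II and III, ZIM-2 chromosome V, and ZIM-3 chromosomes I and IV. The 4 genes lie side by side on the plus strand of chromosome IV within 16889 bases, in the order zim-1 (IV, 10547086 to 10555513), zim-2 (IV, 10555649 to 10558225), zim-3 (IV, 10558715 to 10561429) and him-8 (IV, 10561905 to 10563974). In these RefSeq coordinates the genes are separated by 135, 489 and 475 bases. For all 4, every vit-5 RNAi value lay above every control value as deposited, which held for 30.8% of tested genes. For zim-1 the margin was very small, at 12.10 FPKM in vit-5 RNAi replicate 3 and 12.06 FPKM in control replicate 1. The gene zim-2 stood at 10.2, 7.07 and 7.15 FPKM in the control libraries and 21.3, 15.4 and 12.5 FPKM in the vit-5 RNAi libraries, a log2 fold change of 0.91 (SE 0.26) with a limma adjusted p of 0.122. The groups of zim-2 still did not overlap after median-of-ratios scaling, where its log2 fold change was 0.58. The gene him-8 stood at 14.6, 10.8 and 11.4 FPKM in the control libraries and 29.6, 23.4 and 16.1 FPKM in the vit-5 RNAi libraries, a log2 fold change of 0.82 (SE 0.26) with an adjusted p of 0.128. The genes zim-3 and zim-1 showed smaller differences. For zim-3 the values were 11.2, 8.40 and 9.08 FPKM in the control libraries and 17.2, 14.7 and 13.03 FPKM in the vit-5 RNAi libraries, and for zim-1 they were 12.1, 8.69 and 10.3 FPKM in the control libraries and 18.4, 13.1 and 12.1 FPKM in the vit-5 RNAi libraries. Their log2 fold changes were 0.60 and 0.44, or 0.26 and 0.11 after median-of-ratios scaling. Under quantile normalization zim-1 was at -0.016.

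Ratios within the cluster differed between its genes. The ratio of zim-2 to zim-1 was 0.845, 0.814 and 0.693 in the control libraries and 1.16, 1.17 and 1.03 in the vit-5 RNAi libraries, and that of him-8 to zim-1 was 1.21, 1.24 and 1.11 in the control libraries and 1.61, 1.78 and 1.33 in the vit-5 RNAi libraries, neither overlapping. The ratio of zim-3 to zim-1 overlapped, at 0.932, 0.966 and 0.880 in the control libraries and 0.938, 1.12 and 1.08 in the vit-5 RNAi libraries. In the Ensembl annotation zim-2 starts at 10555247, inside zim-1, and exons of zim-1 and zim-2 share 223 bases on the same strand. Reads there could have gone to either gene. Summed, the 4 zinc-finger genes stood at 48.1, 34.9 and 37.98 FPKM in the control libraries and 86.5, 66.5 and 53.7 FPKM in the vit-5 RNAi libraries.

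The 2 kinase genes of pairing had log2 fold changes below 0, opposite in sign to the zinc-finger genes. The polo-like kinase gene plk-2 (I, 2755625 to 2758204), whose product is recruited to pairing centres, stood at 61.3, 49.7 and 49.9 FPKM in the control libraries and 59.8, 57.6 and 33.8 FPKM in the vit-5 RNAi libraries. Its vit-5 RNAi replicate 3 lay below all controls and the other vit-5 RNAi libraries lay within the control range. The log2 fold change was -0.12 (SE 0.24), with an adjusted p of 0.756, and it was -0.48 after median-of-ratios scaling, where all vit-5 RNAi values lay below all controls. It turned to 0.13 without vit-5 RNAi replicate 3 on the deposited scale. The checkpoint-like kinase gene chk-2 (V, 19908086 to 19916023), needed for the onset of pairing and break formation, was low and variable at 6.06, 2.31 and 3.47 FPKM in the control libraries and 4.02, 3.95 and 2.14 FPKM in the vit-5 RNAi libraries, with a log2 fold change of -0.14 (SE 0.34). That of chk-2 was 0.15 when control replicate 1 was left out and 0.083 when the third vit-5 RNAi library was. The ratio of him-8 to plk-2 was 0.239, 0.217 and 0.229 in the control libraries and 0.494, 0.406 and 0.476 in the vit-5 RNAi libraries, higher in every vit-5 RNAi library.

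Break formation held the largest log2 fold change of the 31 genes. The gene spo-11 (IV, 11123133 to 11124862) encodes the topoisomerase-like enzyme that cuts DNA, and stood at 10.8, 6.87 and 6.57 FPKM in the control libraries and 18.7, 16.4 and 16.99 FPKM in the vit-5 RNAi libraries. All vit-5 RNAi values lay above all controls, and vit-5 RNAi replicate 3 was not low here, unlike in most of the other genes. The means ± SD were 8.08 ± 2.36 and 17.4 ± 1.182 FPKM (n = 3 each), with a log2 fold change of 1.04 (SE 0.24), a 95% interval from 0.49 to 1.59, and a limma adjusted p of 0.122, which did not pass. After median-of-ratios scaling it was 0.71 and the groups still did not overlap. The 3′ ends of spo-11 and enpl-1, on opposite strands, share 23 exonic bases. The chaperone gene enpl-1 stood at 145 ± 13.7 and 208 ± 28.3 FPKM (SD, n = 3 each), with a log2 fold change of 0.52. Strandedness is not known from the labels, and the part of reads from enpl-1 in the spo-11 values was not tested.

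The paralogues dsb-1 and dsb-2 mark nuclei competent for breaks. For dsb-1 (IV, 12408925 to 12410470) the values were 48.4, 32.8 and 36.2 FPKM in the control libraries and 48.6, 39.7 and 31.5 FPKM in the vit-5 RNAi libraries, overlapping throughout, with a log2 fold change of 0.028 (SE 0.23). It was -0.087, -0.017 and -0.12 when control replicate 2 or 3 or the first vit-5 RNAi library was left out. For dsb-2 (II, 14411095 to 14412218) they were 40.2, 33.7 and 37.2 FPKM in the control libraries and 59.6, 45.8 and 35.1 FPKM in the vit-5 RNAi libraries, also overlapping, with 0.30 (SE 0.22). After median-of-ratios scaling dsb-1 was at -0.33 and dsb-2 at -0.052. The ratio of spo-11 to dsb-1 was 0.223, 0.210 and 0.182 in the control libraries and 0.384, 0.413 and 0.539 in the vit-5 RNAi libraries, and that of dsb-2 to dsb-1 was 0.831, 1.03 and 1.03 in the control libraries and 1.23, 1.16 and 1.11 in the vit-5 RNAi libraries, neither overlapping.

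Chromatin-linked regulators of breaks also differed from each other. The gene him-5 (V, 14090426 to 14092454), which promotes breaks on the X chromosome, stood at 15.9, 11.8 and 12.03 FPKM in the control libraries and 22.9, 21.02 and 18.1 FPKM in the vit-5 RNAi libraries. Its groups did not overlap, with a log2 fold change of 0.61 (SE 0.21) and an adjusted p of 0.136. The gene xnd-1 (III, 5604460 to 5607556), encoding a chromatin factor that shapes where crossovers form, stood at 60.2, 40.7 and 46.2 FPKM in the control libraries and 65.4, 58.2 and 34.98 FPKM in the vit-5 RNAi libraries. Its vit-5 RNAi values ran from below to above the control range, with a log2 fold change of 0.077 (SE 0.26). It was -0.28 after median-of-ratios scaling, -0.045 without control replicate 2, and -0.098 and -0.015 without the first and the second vit-5 RNAi library. The ratio of him-5 to xnd-1 was 0.264, 0.291 and 0.260 in the control libraries and 0.351, 0.361 and 0.516 in the vit-5 RNAi libraries, not overlapping. The THAP-domain gene him-17 (V, 13176711 to 13180185), needed for breaks and for chromatin marks of the germline, stood at 13.8, 7.86 and 9.19 FPKM in the control libraries and 23.3, 16.4 and 11.1 FPKM in the vit-5 RNAi libraries. The value of vit-5 RNAi replicate 3 for him-17 lay inside the control range, and the log2 fold change was 0.65 (SE 0.32). The exons of xnd-1 share 48 bases with C05D2.8 on the opposite strand, which stood at 37.002 ± 6.29 and 77.8 ± 9.004 FPKM (SD, n = 3 each).

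Break processing begins with the MRE-11 and RAD-50 complex, which resects DNA ends, and strand exchange is carried out by the recombinase RAD-51. For rad-50 (V, 12245646 to 12251246) the values were 5.84, 3.62 and 3.59 FPKM in the control libraries and 12.97, 8.48 and 6.38 FPKM in the vit-5 RNAi libraries. All vit-5 RNAi values lay above all controls, with a log2 fold change of 0.92 (SE 0.30) and an adjusted p of 0.133. Its partner mre-11 (V, 10733931 to 10736671) stood at 16.3, 10.95 and 10.9 FPKM in the control libraries and 33.8, 21.05 and 15.9 FPKM in the vit-5 RNAi libraries, vit-5 RNAi replicate 3 lying just below control replicate 1, with a log2 fold change of 0.80 (SE 0.30) and an adjusted p of 0.152. In contrast, rad-51 (IV, 10281634 to 10284244) stood at 45.98, 33.3 and 36.7 FPKM in the control libraries and 58.5, 43.1 and 36.8 FPKM in the vit-5 RNAi libraries, with overlapping groups and a log2 fold change of 0.23 (SE 0.22). After median-of-ratios scaling the 3 log2 fold changes were 0.61, 0.46 and -0.12.

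The ratio of rad-50 to rad-51 was 0.127, 0.109 and 0.0978 in the control libraries and 0.222, 0.197 and 0.173 in the vit-5 RNAi libraries, and that of mre-11 to rad-51 was 0.354, 0.329 and 0.296 in the control libraries and 0.577, 0.489 and 0.431 in the vit-5 RNAi libraries. Both were higher in every vit-5 RNAi library. The ratio between the partners rad-50 and mre-11 differed less, at 0.359, 0.331 and 0.330 in the control libraries and 0.384, 0.403 and 0.402 in the vit-5 RNAi libraries. The ubiquitin ligase genes brc-1 (III, 3853089 to 3862968) and brd-1 (III, 6885207 to 6889504), orthologues of human BRCA1 and BARD1 that form a heterodimer, stood at 10.6 ± 2.73 and 15.2 ± 3.95 FPKM and at 13.7 ± 1.11 and 17.6 ± 5.04 FPKM (means ± SD of controls and vit-5 RNAi, n = 3 each). Both overlapped between groups, with log2 fold changes of 0.48 (SE 0.27) and 0.30 (SE 0.25), or 0.15 and -0.037 after median-of-ratios scaling. Their ratio overlapped too, at 0.923, 0.748 and 0.622 in the control libraries and 0.838, 0.877 and 0.886 in the vit-5 RNAi libraries.

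Crossover designation involves MSH-5, a MutS-family protein, the cyclin-like COSA-1 and the RING-finger protein ZHP-3, which gather at the repair sites that become crossovers. The gene with the lowest control mean of all 31 was msh-5 (IV, 13155233 to 13164054), at 2.63, 1.59 and 2.11 FPKM in the control libraries and 5.71, 4.20 and 2.70 FPKM in the vit-5 RNAi libraries. Its groups did not overlap, though vit-5 RNAi replicate 3 and control replicate 1 were nearly equal, and the log2 fold change was 0.71 (SE 0.28) with an adjusted p of 0.158. For zhp-3 (I, 8529376 to 8531342) the values were 19.1, 16.3 and 14.7 FPKM in the control libraries and 38.3, 25.1 and 21.99 FPKM in the vit-5 RNAi libraries, again without overlap, with a log2 fold change of 0.70 (SE 0.25) and an adjusted p of 0.138. For cosa-1 (III, 2726116 to 2731670) they were 18.2, 12.5 and 16.5 FPKM in the control libraries and 29.4, 21.9 and 15.7 FPKM in the vit-5 RNAi libraries, with overlap and a log2 fold change of 0.45 (SE 0.27). Exons of cosa-1 share 178 bases with Y71H2AM.12 on the opposite strand. The ratio of cosa-1 to msh-5 was 6.92, 7.87 and 7.80 in the control libraries and 5.14, 5.21 and 5.81 in the vit-5 RNAi libraries, lower in every vit-5 RNAi library. Summed, the 3 genes stood at 39.9, 30.4 and 33.3 FPKM in the control libraries and 73.4, 51.1 and 40.4 FPKM in the vit-5 RNAi libraries, and after median-of-ratios scaling all 3 log2 fold changes stayed above 0, with a median of 0.35.

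Counted over all roles, 10 of the 31 genes (32.3%) had every vit-5 RNAi value above every control value as deposited and 0 had every value below, where 30.8% and 3.15% of tested genes did. The 10 were syp-3, him-8, zim-1, zim-2, zim-3, spo-11, him-5, rad-50, msh-5 and zhp-3, with small margins for zim-1, msh-5 and syp-3. After median-of-ratios scaling zim-2 and spo-11 were higher without overlap and htp-1, htp-2 and plk-2 lower, where 14.4% and 16.3% of tested genes were.

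**Figure D3:**
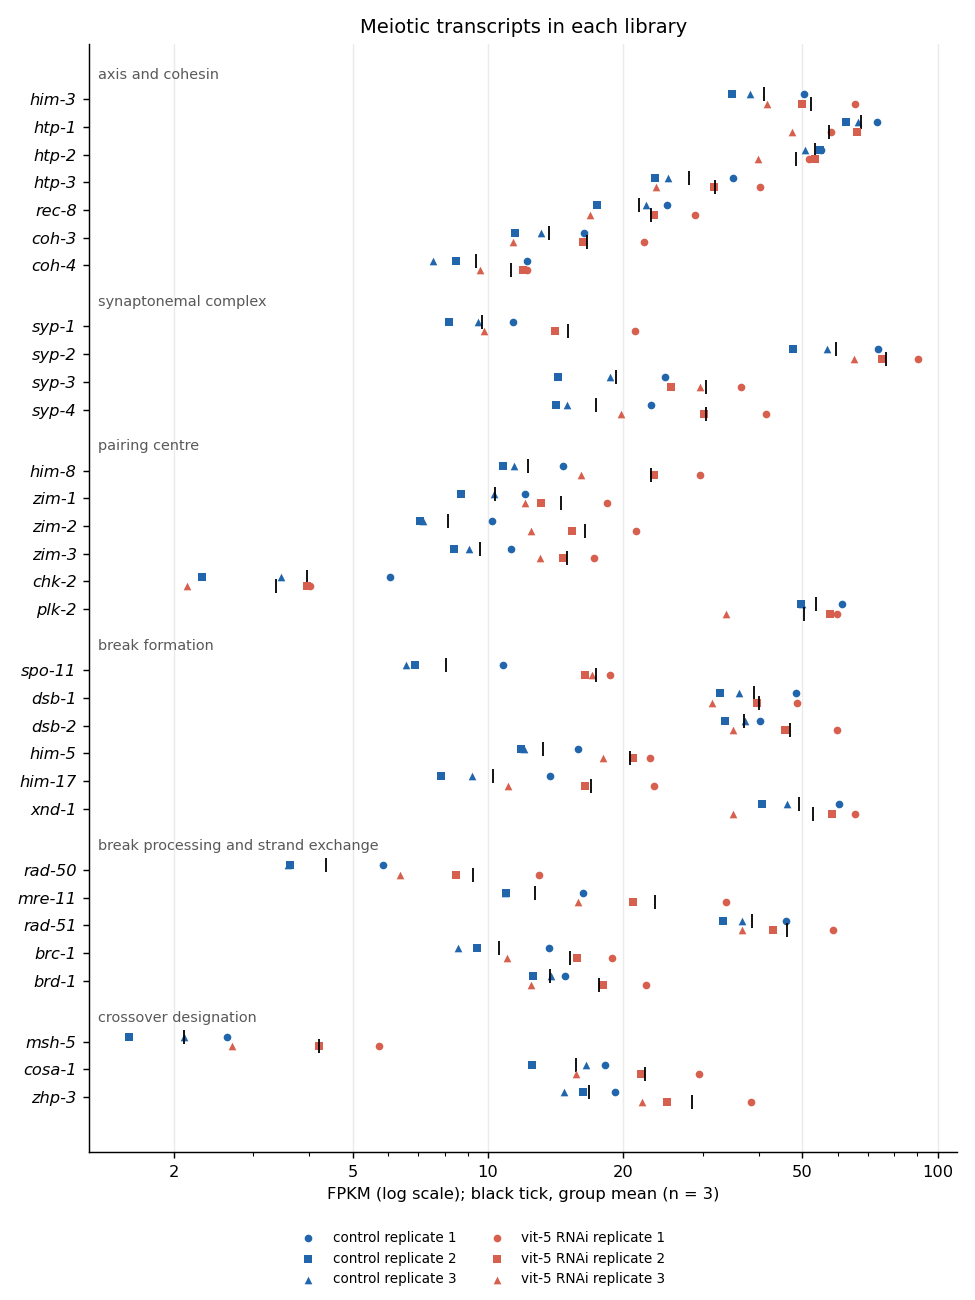
FPKM of each meiotic gene in each library on a log axis, by role. Blue points are the control libraries and red points the vit-5 RNAi libraries, with circles, squares and triangles for replicates 1, 2 and 3, and black ticks are group means (n = 3). Levels run from 1.59 FPKM (msh-5, control replicate 2) to 90.3 FPKM (syp-2, vit-5 RNAi replicate 1), and circles stand to the right within most groups.

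To compare the genes with each other free of library scaling, each was divided by the geometric mean of the 31 genes in its own library. This measure was added after the values were seen, and since the 31 relative levels balance in each library, some must be lower where others are higher. On it, 8 genes (25.8%) were higher in every vit-5 RNAi library than in any control and 10 (32.3%) lower, where 12.4% and 14.6% of tested genes were on the same measure. The meiotic genes share the library order that the division removes and other genes need not, so those shares are not a matched background. The 8 were spo-11, rad-50, zim-2, msh-5, him-8, mre-11, syp-4 and zim-3, with log2 differences from 0.69 (spo-11) to 0.20 (zim-3). The 10 were htp-1, htp-2, plk-2, dsb-1, rec-8, xnd-1, htp-3, rad-51, coh-3 and him-3, from -0.70 (htp-1) to -0.11 (him-3). Of the 7 axis and cohesin genes, 6 were among the lower and 0 among the higher. With any 1 library left out, 19 to 21 of the 31 did not overlap, and neither did 29.6% to 48.6% of tested genes. Leaving out a library can only keep or add genes without overlap, so these counts are no check of the result.

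**Figure D4:**
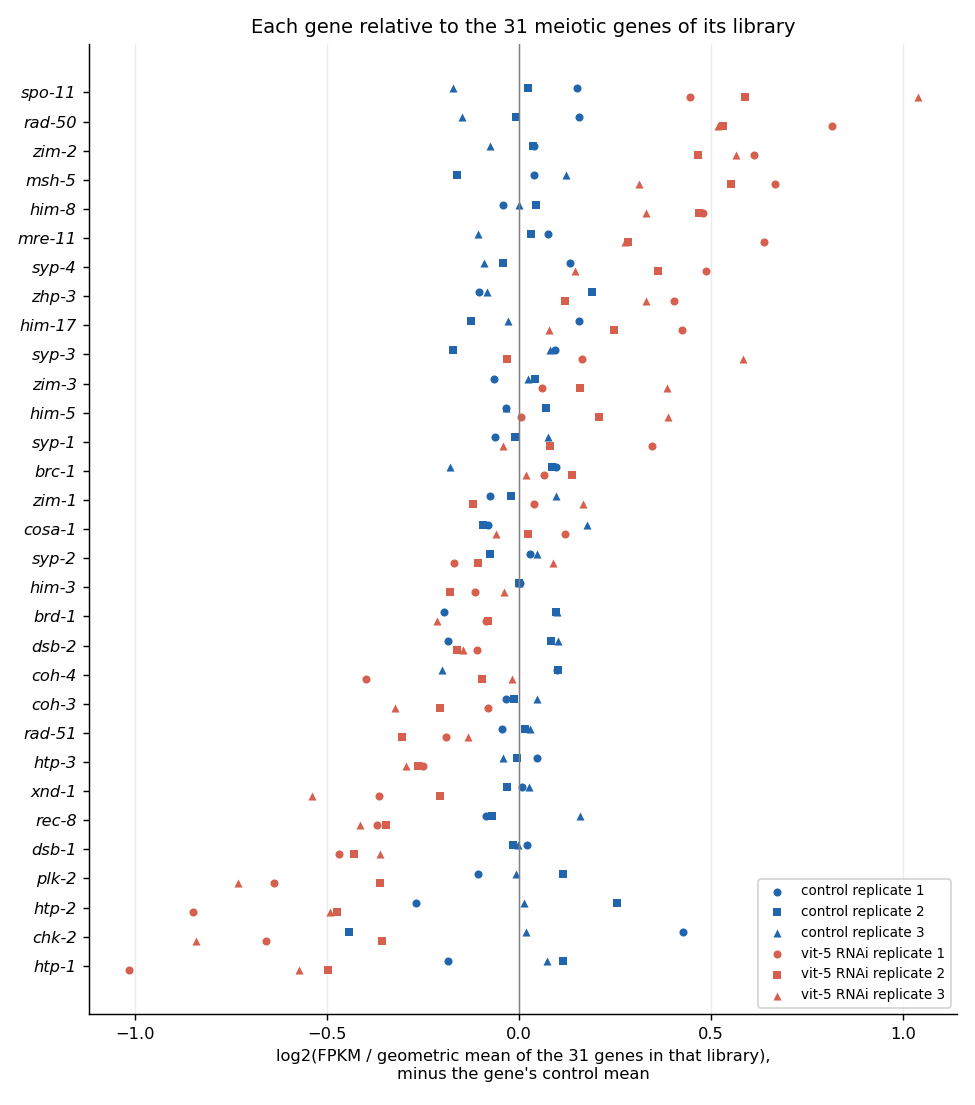
Relative level of each gene, as log2 of its FPKM over the geometric mean of the 31 genes in the same library, with the gene's control mean set to 0. Points are libraries (blue control, red vit-5 RNAi, shapes for replicates 1, 2 and 3), and genes are ordered by the difference between groups. At the top spo-11, rad-50 and zim-2 lie above all controls, by 0.69, 0.62 and 0.55 on average, and at the bottom htp-1 lies below all controls, by an average of -0.70.

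Abundant genes tended to have lower log2 fold changes than scarce ones. For the 9 genes with a mean over all libraries of at least 30 FPKM, the median log2 fold change was 0.077, and 1 of them (syp-2) lay above the median of all tested genes. For the 11 genes from 15 to 30 FPKM the median was 0.61, and for the 11 under 15 FPKM it was 0.60. All tested genes leaned the same way, with medians of 0.25, 0.41 and 0.48 in the same ranges of level (1898, 2131 and 4164 genes). Spearman's rho between level and log2 fold change was -0.49 across the 31 genes and -0.24 across the 8193 tested genes in their range of level. Genes measured in the same libraries are not independent, and levels and fold changes come from the same values, so these are descriptions.

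The meiotic genes were also set against the germline markers of the same library. The summed level of the 31 genes, as a percentage of the summed germline markers, was 38.2%, 42.8% and 43.5% in controls and 47.6%, 44.5% and 55.5% after vit-5 RNAi. The groups did not overlap (exact permutation p 0.1, 2-sided). The synaptonemal complex genes stood at 6.03%, 5.83% and 6.49% in controls and 8.38%, 7.32% and 10.2% after vit-5 RNAi, without overlap, and the crossover genes at 1.81%, 2.10% and 2.17% in controls and 3.24%, 2.58% and 3.32% after vit-5 RNAi, also without overlap. Pairing-centre, break formation and break processing genes were also higher after vit-5 RNAi without overlap. Of the 6 role groups only axis and cohesin genes did overlap, at 12.1%, 14.8% and 14.5% in controls and 12.3%, 12.8% and 15.7% after vit-5 RNAi. Set against the oocyte markers instead, axis and cohesin genes did not overlap, at 2.53%, 2.35% and 2.43% in controls and 2.87%, 2.58% and 3.11% after vit-5 RNAi. Neither did any other role group. The sum of all 31 as deposited overlapped between groups, so the ratio also rests on the markers. The germline marker list had a median log2 fold change of 0.17 and the oocyte list -0.06, both below the 0.34 of all tested genes. The share of all tested genes without overlap on the same ratios was not counted. Whether the ratios are particular to meiotic genes was therefore not tested.

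Further genes of meiosis, in 3 lists that hold none of the 31, gave 0 genes past the adjusted threshold. Of 11 genes for cohesin, its loaders and related complexes, 11 had a log2 fold change above 0 and 4 were higher at an unadjusted p under 0.05 (26.2% of all tested genes were), with a median of 0.60. The smallest p-values belonged to smc-5 and evl-14. The gene smc-5, which acts in a repair complex related to cohesin, stood at 12.2, 8.94 and 9.15 FPKM across controls against 26.9, 17.9 and 14.95 FPKM with vit-5 RNAi, with a log2 fold change of 0.89 (SE 0.26) and an adjusted p of 0.123. The gene evl-14, the homologue of the cohesin regulator PDS5, stood at 6.16, 3.66 and 3.24 FPKM across controls against 13.6, 8.496 and 5.85 FPKM with vit-5 RNAi, with a log2 fold change of 0.92 (SE 0.34) and an adjusted p of 0.148. Of 15 further genes for synapsis and pairing, 9 were above 0 and 6 below, with 2 at an unadjusted p under 0.05 and a median of 0.08. Those 2 were syp-6 and syp-5, the paralogous central-region genes, at 13.2, 9.25 and 10.3 FPKM across controls against 28.4, 20.1 and 12.9 FPKM with vit-5 RNAi and at 10.2, 7.54 and 7.72 FPKM across controls against 22.7, 15.5 and 10.1 FPKM with vit-5 RNAi. The log2 fold changes of syp-6 and syp-5 were 0.80 (SE 0.30) and 0.79 (SE 0.30), close to that of syp-4, with overlapping groups.

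Of 33 further genes for breaks and repair, 29 were above 0 and 16 had an unadjusted p under 0.05, all higher (again against 26.2% of tested genes), with a median of 0.57. The smallest p-values belonged to gen-1, a Holliday junction resolvase gene, at 25.03, 15.5 and 19.4 FPKM across controls against 42.2, 29.4 and 30.6 FPKM with vit-5 RNAi, and to atl-1, the ATR-family checkpoint kinase gene, at 2.95, 1.92 and 1.96 FPKM across controls against 5.96, 4.02 and 3.86 FPKM with vit-5 RNAi. Their log2 fold changes were 0.75 (SE 0.24) and 0.77 (SE 0.25), with limma adjusted p-values of 0.129 and 0.129. Neither gene overlapped between groups. After median-of-ratios scaling the medians of the 3 lists were 0.26, -0.28 and 0.24, where that of all tested genes was 0.03. At an unadjusted p under 0.05 the cohesin list then held 1 gene higher and 0 lower, the synapsis and pairing list 0 and 5, and the repair list 1 and 3, against 9.23% and 12.1% of tested genes.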

How the data were processed

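The measurements are FPKM as the authors deposited them, named so in the file headers, with zeros mostly written as 0.0001. Per the submitters' processing notes, tools included TopHat2 2.0.12, Bowtie2 2.2.3, HTSeq 0.6.1 and DESeq 1.18.0, with the build WBcel235 and no role given. What computed the FPKM, and whether libraries were stranded, is not known from the labels. Low FPKM times transcript length gave the rough depths. Only 30.8% to 32.4% of them lay within 0.1 of a whole fragment (20% by chance), so counts were not recovered.

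Values were analysed as log2(FPKM + 1), which understates fold changes of low genes. The 12908 genes reaching 1 FPKM in 3 or more libraries, all 31 meiotic genes among them, were fitted in limma 3.58.1 (R 4.3.3) with group as the only term and a mean-variance trend. Fold changes subtract control from vit-5 RNAi, tests are 2-sided, and p-values are Benjamini-Hochberg adjusted over all tested genes. The members and gene lists were chosen with earlier results of these data known, so no list was tested. Named genes were the 31, the 2 smallest p-values of each wider meiosis list, the 2 most abundant of each marker list, and vit-5. Neighbours with shared exons, and the within-library ratios, were chosen after values were seen. Of 186 list entries, 183 matched a gene by name in the files or RefSeq symbol. Coordinates and strands are WBcel235 (RefSeq, exon overlaps from Ensembl).

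The procedure was tested on simulated data, at an adjusted p under 0.05. Of 50 genes changed by a log2 of 1, 26% were recovered, of 50 changed by 2, 84%, and of 50 changed by 5, 100%. The changed genes were drawn above a floor of control level that msh-5, chk-2 and rad-50 do not reach. Of 12708 unchanged genes 10 were called. Changes near a log2 of 1 were thus mostly missed, so a gene that did not pass is not shown to be unchanged. The simulated noise was drawn for each gene and library apart, without the shared library differences of these data. In the data themselves vit-5, with a log2 fold change of -5.03, did not pass (limma adjusted p 0.0552). No 2 libraries were copies: at most 0.0697% of tested genes had equal values, and Pearson's r was 0.927 to 0.989 within groups. Alternatives were a pseudocount of 0.1, no filter, scaling by median of ratios, by upper quartile or by quantiles, the replicate number as a block, and leaving out each library. Python 3.11.15 and matplotlib 3.10.9 were used.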

Additional observations from a re-analysis of the deposited data

How the results depend on the processing

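A pseudocount of 0.1 or no filter on low values turned no direction among the 31 genes. Without the filter 10 of them, not 11, were higher at an unadjusted p under 0.05. Scaling turned more. The following log2 fold changes, above 0 as deposited, were below 0 after median-of-ratios scaling, alone or with the replicate number as a block: him-3 -0.026, htp-3 -0.18, rec-8 -0.28, coh-3 -0.11, coh-4 -0.079, dsb-1 -0.33, dsb-2 -0.052, xnd-1 -0.28, rad-51 -0.12 and brd-1 -0.037. After upper-quartile scaling htp-3 was at -0.10, rec-8 -0.20, coh-3 -0.034, coh-4 -0.0076, dsb-1 -0.25, xnd-1 -0.20 and rad-51 -0.043. After quantile normalization htp-3 was at -0.16, rec-8 -0.31, coh-3 -0.22, coh-4 -0.21, zim-1 -0.016, dsb-1 -0.25, xnd-1 -0.16, rad-51 -0.027 and brd-1 -0.14. Each of these scalings takes out part of the median shift of all tested genes.

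The median of the 31 genes was 0.11 after median-of-ratios scaling (with 17 above 0, block or not) and 0.037 after quantile normalization. At an unadjusted p under 0.05, median-of-ratios scaling left 2 higher and 2 lower, upper-quartile scaling 4 and 2 (12.7% and 8.67% of tested genes), and quantile normalization 1 and 1 (5.77% each). The log2 ratio of summed axis genes was -0.32 after median-of-ratios and -0.25 after upper-quartile scaling. After median-of-ratios scaling that ratio was 0.18 for the synaptonemal complex, -0.032 for pairing centres, -0.042 for break formation, 0.13 for break processing and 0.31 for crossover designation.

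With 1 library left out, 0 to 5 of all genes passed the adjusted threshold, and 3 to 18 of the 31 had an unadjusted p under 0.05, all higher (11.2% to 29.9% of tested genes were higher). Over those fits the log2 fold change of htp-3 ran from -0.0062 to 0.37, rec-8 from -0.10 to 0.27, chk-2 from -0.39 to 0.15, plk-2 from -0.27 to 0.13, dsb-1 from -0.12 to 0.19 and xnd-1 from -0.098 to 0.34. The sign of the other 25 held, but 15 of these moved by over 1.5 times, among them coh-3 (0.0083 to 0.46), htp-2 (-0.23 to -0.024) and rad-51 (0.053 to 0.38). Those that stayed within 1.5 times were syp-3, syp-4, him-8, zim-2, zim-3, spo-11, him-5, rad-50, msh-5 and zhp-3.

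The libraries share replicate numbers, and deviations from group means correlated at 0.753, 0.034 and 0.681 for numbers 1, 2 and 3. Control replicates 1 and 3 correlated best with the vit-5 RNAi library of their own number, and control replicate 2 with vit-5 RNAi replicate 3 (0.348). The labels do not say whether the numbers pair the libraries, so the main fit held no block. That choice changes which genes pass. With the replicate number as a block, 3806 of all genes passed the adjusted threshold, 12 of the 31 among them, all higher (28.5% of tested genes), and 18 had an unadjusted p under 0.05 (41.9%). The 12 were syp-3, syp-4, him-8, zim-2, zim-3, spo-11, him-5, him-17, rad-50, mre-11, msh-5 and zhp-3. The block with median-of-ratios scaling, added after seeing the data, gave 1318 genes, with spo-11 (1 of the 31) higher and 2, htp-1 and htp-2, lower (3.3% and 6.91% of tested genes), and 7 higher and 4 lower unadjusted (16.4% and 18.3%). Estimated depth leaves about 92 fragments behind the thinnest value (chk-2), and 3 libraries a group limit every test.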
